A study of Mus musculus with 37 samples.

Results

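Gene expression in the left ventricle 0.5 days after cardiac arrest was compared with expression 0.5 days after adrenaline exposure alone. The comparison used 8 of the 37 bulk RNA-seq libraries of the series, 4 from Arrest mice and 4 from Adr mice, chosen by their treatment labels. The labels call the Adr group sham. Per the study's methods, the mice of both groups were male and female C57BL/6J, were anesthetized with isoflurane, and were intubated and ventilated. Each then had a percutaneous injection into the left ventricle under ultrasound guidance, saline in Adr mice and potassium chloride in Arrest mice, the latter to stop the heart. Both groups later had adrenaline injected into the ventricle, and only Arrest mice had chest compressions. The groups therefore shared the anesthesia, the needle injury and the adrenaline, and differed in the asystole, the potassium chloride and the compressions together, which cannot be told apart here. Hearts were flushed with saline and the apex was discarded because of the needle injury. Naïve hearts, whose ranges are given below for some genes, are labeled as having no intervention. Per the methods, Naïve mice were anesthetized but neither intubated nor injected, so they had no adrenaline. Their tissue was taken after the baseline imaging. Naïve ranges are therefore a reference level and not a matched control for either group. The labels do not state that each library was a separate mouse, so p-values measure only the spread between these libraries.

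Ischemia followed by reperfusion is known to release alarm signals from injured myocytes and endothelium. Cytokines of the IL-6 family, among them oncostatin M, then act on myocytes and fibroblasts through a shared receptor subunit, gp130 (Il6st), which activates the transcription factor STAT3. STAT3 drives acute phase genes such as Serpina3n and Lcn2 and its own inhibitor, Socs3. Adrenaline alone acts on the same tissue through beta-adrenergic receptors and cAMP, and stress hormones induce part of the same genes.

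The 8 libraries held 13.2 to 21.7 M fragments counted on genes (M, 1e6 fragments), and 17081 to 21377 genes were detected at any level. The share of fragments on mitochondrial genome genes was 23.7% to 26.8%. Each group had 2 males and 2 females by Xist and Ddx3y. Cardiomyocyte markers were high throughout, with Myh6 at 1156 to 1796 FPKM (fragments per kilobase of gene length per 1e6 fragments), and their summed level was lowest in Arrest replicate 4. Arrest replicates 1 and 4 also stood apart in how log2 levels trended with gene length (Spearman correlation of -0.258 and 0.284, with -0.091 to 0.070 in the others). Arrest replicate 2 had the highest level of most inflammatory and early response genes below, so values without it are given beside many of the lists and genes it moved.

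No gene passed the threshold. Of 13360 genes tested with limma on log2(FPKM + 1), 0 (0%) had an adjusted p of at most 0.05, and the lowest adjusted p was 0.375. At an unadjusted p up to 0.05 there were 884 genes (6.62%), of which 416 were higher in Arrest (3.11%) and 468 lower (3.5%). The number that 0.05 of the genes tested amounts to is 668. A linear model with precision weights on the recovered fragments (limma voom) had 863 genes at that level and also 0 past the adjusted threshold. All 4 Arrest libraries lay above all 4 Adr libraries in 256 genes (1.92%), and below them in 266 (1.99%). Differences were mostly small, with 95.0% of genes within 0.5 on the log2 scale and 68 genes beyond 1. The median half-width of a gene's 95% confidence interval was 0.36 on the log2 scale, so differences of that size could be missed even without adjustment. With adjustment over 13360 genes larger ones could be missed too, as none of the 68 genes beyond 1 was called. The absence of calls does not show that the groups were alike. All values below are therefore descriptions of these libraries, and "higher" or "lower" refers to the group means of genes that did not pass the adjusted threshold.

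**Figure D1:**
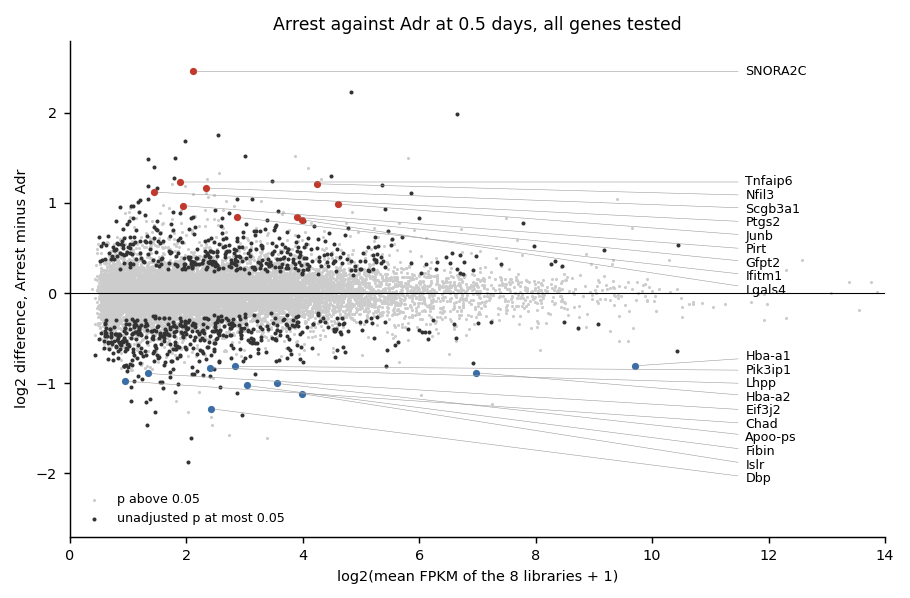
Each point is one of the 13360 genes tested. The horizontal axis is the log2 of the mean FPKM of the 8 libraries plus 1 and the vertical axis the log2 difference, Arrest minus Adr. Dark points are the 884 genes with unadjusted p up to 0.05. Red and blue points are the 10 genes with the largest positive and negative differences among those with no overlap between the groups and a group mean of at least 1 FPKM, and most genes lie close to 0.

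Part of the IL-6 receptor pathway had higher levels in Arrest. In the list of cytokines and IL-6 family signaling, 5 of 15 tested members were higher with unadjusted p up to 0.05 and 0 were lower, against 3.11% and 3.5% of all genes. These were Osmr, Il6st, Stat3, Socs3 and Il1r1, the receptor of interleukin-1. The median log2 difference of the list was 0.23, against 0.00 over all genes. The median was 0.16, with 4 genes higher at that p, without Arrest replicate 2, and without Arrest replicate 4 the median was 0.11.

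Osmr encodes the receptor subunit that binds oncostatin M. It stood at 2.34, 2.44, 4.26 and 6.81 FPKM in Adr replicates 1 to 4 and at 6.78, 10.2, 7.75 and 10.2 FPKM in Arrest replicates 1 to 4. The highest Adr library, replicate 4, just exceeded the lowest Arrest library. The log2 difference was 1.04 ± 0.27 (SE; limma adjusted p = 0.663). Il6st, the gp130 subunit that signals for the whole family, stood at 17.2, 18.2, 20.4 and 19.4 FPKM in Adr and at 20.3, 26.3, 34.5 and 27.7 FPKM in Arrest. Again one Adr library overlapped the lowest Arrest library, here by a small margin (log2 difference 0.49 ± 0.15, limma adjusted p = 0.677). The Adr libraries were also below the range of the 5 Naïve hearts for this gene, 22.4 to 25.8 FPKM.

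Stat3 (ENSMUSG00000004040), the transcription factor downstream of gp130, stood at 12.8, 15.2, 16.7 and 18.6 FPKM in Adr and at 21.4, 27.6, 22.2 and 24.8 FPKM in Arrest. The groups did not overlap. The mean was 15.8 ± 2.45 FPKM (SD, n = 4) in Adr and 24.01 ± 2.797 FPKM (SD, n = 4) in Arrest, a 1.52-fold ratio (log2 difference 0.58 ± 0.13, limma adjusted p = 0.663). Without Arrest replicate 2 the Stat3 difference was 0.51.

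Socs3 (ENSMUSG00000053113), the feedback inhibitor of gp130 and a direct target of STAT3, stood at 3.22, 3.79, 4.14 and 11.7 FPKM in Adr and at 10.2, 25.7, 11.7 and 10.03 FPKM in Arrest. Adr replicate 4 lay within the Arrest range, and the other 3 Adr libraries lay well below it (log2 difference 1.25 ± 0.38, limma adjusted p = 0.677). Arrest replicate 2 was the highest by more than 2-fold. Without it, the Socs3 difference was 0.95. The cytokine Il6 itself did not reach the level needed for testing, with 4.04 FPKM in Arrest replicate 2, 0.325 FPKM in Arrest replicate 4 and at most 0.0275 FPKM in the other 6 libraries.

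**Figure D2:**
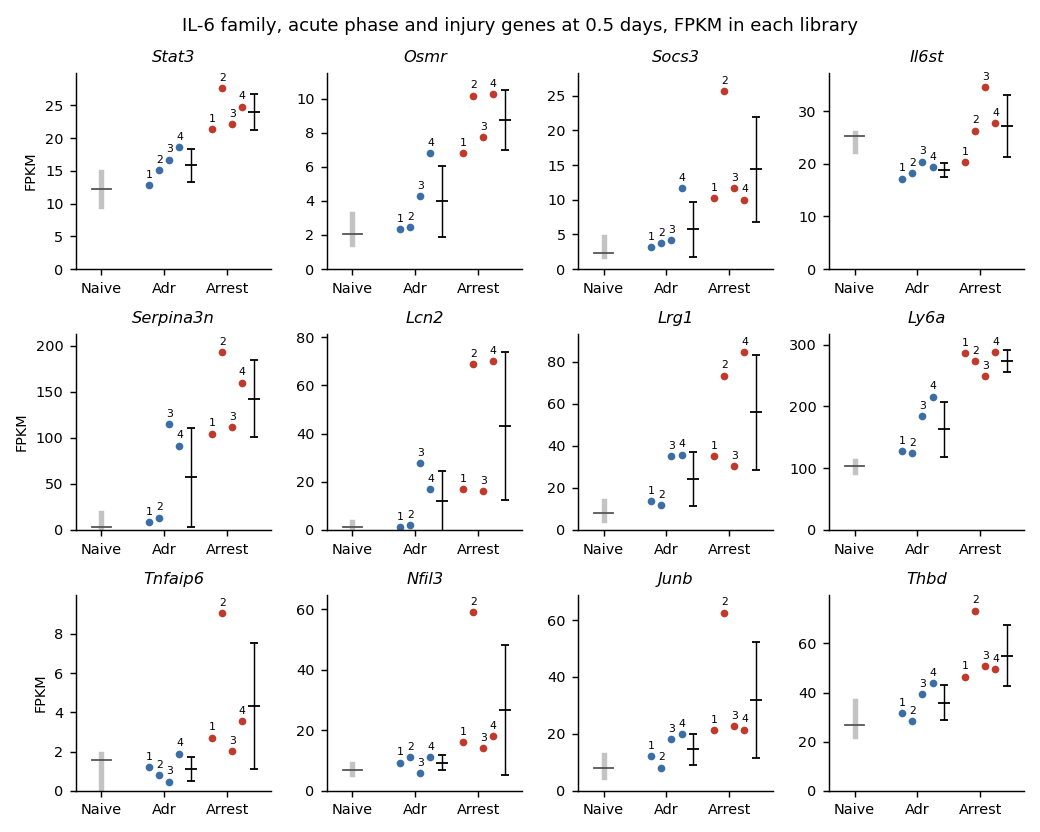
FPKM of 12 genes in each library at 0.5 days, on linear vertical axes that start at 0. Blue points are the 4 Adr and red points the 4 Arrest libraries, numbered by replicate, black bars are the group mean ± SD, and gray bars are the range of the 5 Naïve hearts with their median. Stat3, Ly6a, Tnfaip6, Nfil3, Junb and Thbd do not overlap between the groups, and in Serpina3n and Lcn2 Adr replicates 1 and 2 lie apart from replicates 3 and 4.

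A STAT dimer is known to bind the letters TTCNNNGAA, which read the same on both strands. The RefSeq promoter windows (250 bases before to 50 after each start, build GRCm38.p6) of all 15 tested members of the list were searched for it. It was present in 1 of their 18 windows, that of Socs3, and in 8.3% of all 32851 windows. Of the 10 largest positive differences described below, 8 genes had a window and 2 held a match, one of them Tnfaip6, and of the 10 largest negative differences 7 had a window and 1 held a match. The windows of Socs3 (chr11:117969317-117969616, minus strand) and Tnfaip6 (chr2:52037863-52038162, plus strand) are shown because both genes were higher in Arrest and are known to respond to inflammatory signals. Capitals mark the match, which begins 154 bases before the Socs3 start and 209 bases before the Tnfaip6 start.
Socs3: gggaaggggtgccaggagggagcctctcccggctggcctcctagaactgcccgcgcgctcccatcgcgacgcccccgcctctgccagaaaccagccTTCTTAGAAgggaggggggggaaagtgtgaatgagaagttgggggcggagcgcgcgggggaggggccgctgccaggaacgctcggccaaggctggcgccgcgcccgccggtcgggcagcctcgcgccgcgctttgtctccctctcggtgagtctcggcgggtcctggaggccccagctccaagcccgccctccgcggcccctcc
Tnfaip6: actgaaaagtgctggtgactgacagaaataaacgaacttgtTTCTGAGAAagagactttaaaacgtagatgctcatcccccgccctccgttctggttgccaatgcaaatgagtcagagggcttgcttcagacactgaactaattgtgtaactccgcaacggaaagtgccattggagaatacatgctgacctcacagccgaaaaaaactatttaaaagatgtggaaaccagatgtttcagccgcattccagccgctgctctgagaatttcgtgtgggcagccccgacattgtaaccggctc
A match describes the letters only, and windows without one say nothing about STAT3 at those genes.

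Acute phase genes were higher in Arrest on average but were split within the Adr group. All 10 tested members of the acute phase and injury list had a higher mean in Arrest, with a median log2 difference of 0.77, and 3 of them had an unadjusted p up to 0.05. Over all genes, 50.4% had a higher mean and 3.11% were higher at that p. Serpina3n, an inhibitor of serine proteases, stood at 8.84, 13.3, 115 and 91.7 FPKM in Adr and at 105, 193, 111 and 160 FPKM in Arrest. Adr replicates 1 and 2 lay within the Naïve range of 1.495 to 18.9 FPKM, and Adr replicate 3 exceeded 2 of the Arrest libraries. The log2 difference was 1.99 ± 0.74 (limma adjusted p = 0.699).

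Lcn2, a siderophore-binding protein of the acute phase, had the same split, at 1.20, 1.84, 27.6 and 16.8 FPKM in Adr and at 17.1, 68.9, 16.02 and 70.2 FPKM in Arrest (log2 difference 2.23 ± 0.87, limma adjusted p = 0.726). Lrg1, a secreted leucine-rich glycoprotein, stood at 13.9, 11.96, 35.01 and 35.8 FPKM in Adr and at 35.2, 73.4, 30.3 and 84.7 FPKM in Arrest. In these genes Arrest replicates 2 and 4 were the highest, and Arrest replicates 1 and 3 were close to Adr replicates 3 and 4. Without Arrest replicate 2, 0 of the 10 acute phase genes had an unadjusted p up to 0.05, and the median of the list was 0.58. Over the 8 fits that each left out 1 library, this median ranged from 0.32 without Arrest replicate 4 to 1.04 without Arrest replicate 1.

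Mt1, a metallothionein that buffers zinc, had the same split within Adr, at 183, 176, 822 and 749 FPKM in Adr and 671, 1594, 421 and 797 FPKM in Arrest (log2 difference 1.04 ± 0.58). The Mt1 difference was 0.69 without Arrest replicate 2, and it ranged from 0.68 to 1.42 with each library left out. Its neighbor in function Mt2 was listed at 0 to 4.32 FPKM and did not reach the level needed for testing. Whether annotation or counting lies behind these low Mt2 values was not tested. The matrix metalloproteinase Mmp3, which cleaves proteoglycans and other matrix proteins, stood at 7.07, 7.02, 17.3 and 17.7 FPKM in Adr and at 16.6, 36.0, 33.9 and 35.1 FPKM in Arrest. Arrest replicate 1 lay just below the higher Adr libraries and the other 3 Arrest libraries were above all of Adr (log2 difference 1.30 ± 0.35, limma adjusted p = 0.663). Timp1, an inhibitor of these proteases, overlapped widely, at 10.9 to 41.5 FPKM in Adr and 15.2 to 52.1 FPKM in Arrest.

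Ly6a, a surface protein of endothelial and mesenchymal cells that interferons and other signals induce, separated the groups more evenly. It stood at 127, 124, 184 and 216 FPKM in Adr and at 286, 273, 249 and 288 FPKM in Arrest, with no overlap (log2 difference 0.78 ± 0.18, limma adjusted p = 0.663). The Arrest libraries were close to each other, and Adr replicates 1 and 2 were again the lowest. Ly6a was chosen after its values were seen, as were Emcn, Tnfrsf1a, Ecm2, Dpt, Pdgfrl, Itih5, Stard10, Chil3, Trem1 and Clec4e below.

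The 10 largest positive differences with no overlap between the groups belonged to SNORA2C, Tnfaip6, Nfil3, Scgb3a1, Ptgs2, Junb, Pirt, Gfpt2, Ifitm1 and Lgals4. SNORA2C, a small nucleolar RNA, had the lowest p of all genes and rested on few reads. It was listed at 0, 0, 0 and 1.68 FPKM in Adr and at 6.72, 6.001, 3.73 and 8.57 FPKM in Arrest. Behind these values were 0 to 3 fragments in Adr and 8 to 27 in Arrest, on a gene of 138 bases (log2 difference 2.46 ± 0.34, limma adjusted p = 0.375). All 5 Naïve hearts were listed at 0.

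Tnfaip6 encodes a secreted hyaluronan-binding protein of inflamed tissue. It stood at 1.22, 0.792, 0.469 and 1.895 FPKM in Adr and at 2.71, 9.06, 2.03 and 3.56 FPKM in Arrest (log2 difference 1.23 ± 0.36, limma adjusted p = 0.672). Nfil3, a transcriptional repressor that competes with Dbp for the same DNA element, stood at 9.27, 11.0, 5.70 and 11.2 FPKM in Adr and at 16.1, 58.9, 13.97 and 17.9 FPKM in Arrest. In both genes every Arrest library was above every Adr library and Arrest replicate 2 stood far above the rest. Without that library the differences were 0.87 for Tnfaip6 and 0.76 for Nfil3.

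Ptgs2, the inducible cyclooxygenase that starts prostaglandin synthesis, stood at 0.280 to 0.861 FPKM in Adr and at 1.43, 7.04, 1.61 and 1.51 FPKM in Arrest. The Ptgs2 log2 difference was 1.12, and 0.70 without Arrest replicate 2. Gfpt2, an enzyme that feeds glucose into hexosamine synthesis, stood at 7.05, 13.3, 7.29 and 11.2 FPKM in Adr and at 13.6, 23.4, 14.6 and 20.6 FPKM in Arrest. For Gfpt2 the highest Adr and lowest Arrest libraries nearly touched. Scgb3a1, a secretoglobin, had means of 2.155 and 6.005 FPKM in Adr and Arrest, Pirt, a regulator of TRP channels, 1.63 and 4.03 FPKM, Ifitm1, an interferon-induced membrane protein, 4.35 and 8.34 FPKM, and Lgals4, a galectin, 10.4 and 19.4 FPKM.

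Immediate early genes, which cells transcribe within minutes of a stimulus, leaned higher in Arrest largely through 1 library. Of 25 tested, 24 had a higher mean in Arrest and 4 had an unadjusted p up to 0.05 (Klf10, Ier3, Dusp5 and Junb), against 50.4% and 3.11% of all genes, with a median of 0.40. Without Arrest replicate 2, 11 of 25 were higher, the median was -0.03, and 4 were higher at that p. Junb, an AP-1 subunit, stood at 12.3, 8.16, 18.2 and 19.9 FPKM in Adr and at 21.2, 62.6, 22.8 and 21.5 FPKM in Arrest. The Junb log2 difference was 0.99, and 0.62 without Arrest replicate 2. Apart from replicate 2, the Arrest libraries lay close to each other and just above Adr replicates 3 and 4. The cardiac stress and fetal gene list behaved the same way, with 12 of 19 higher and a median of 0.09 in all libraries, and 6 of 19 higher and a median of -0.16 without Arrest replicate 2. Nppb, the B-type natriuretic peptide that stretched ventricle secretes, ranged from 197 to 952 FPKM in Adr and from 631 to 1780 FPKM in Arrest, and Nppa overlapped widely (log2 difference -0.16 ± 0.51).

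Chemokines leaned higher in Arrest with wide overlap, and leukocyte markers were mixed. In the chemokine list, 13 of 18 had a higher mean, 3 were higher with unadjusted p up to 0.05 (Ccl12, Ccl9 and Ccl6) and 1 was lower (Ccl11, an eosinophil attractant), against 50.4%, 3.11% and 3.5% of all genes. The median was 0.40, and without Arrest replicate 2 it was 0.23 with 2 genes higher at that p. Ccl12, a monocyte attractant, stood at 6.77, 1.56, 2.74 and 1.15 FPKM in Adr and at 6.91, 17.4, 17.0 and 3.18 FPKM in Arrest. Arrest replicates 2 and 3 were the highest, replicate 1 lay just above all of Adr, and replicate 4 lay within the Adr range (log2 difference 1.52 ± 0.53, limma adjusted p = 0.677). Ccl2, which attracts monocytes through Ccr2, ranged from 0.678 to 5.97 FPKM in Adr and from 3.07 to 14.9 FPKM in Arrest.

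Inflammatory monocyte markers summed to 30.1, 35.1, 36.4 and 42.5 FPKM in Adr and to 42.8, 127, 42.7 and 96.0 FPKM in Arrest. The groups did not overlap, by a margin of less than 1 FPKM (exact permutation p = 0.029, the smallest that 4 against 4 libraries can give, 0.3 after adjustment over 21 marker lists). Only 7 of the 14 genes of this list were expressed enough to test. All 7 had a higher mean in Arrest, against 50.4% of all genes, with a median log2 difference of 0.36. Of them, 1 had an unadjusted p up to 0.05, against 3.11% of all genes higher at that p. Much of the sum came from genes that other cells also express. Thbs1, thrombospondin, made up 76.8 FPKM in Arrest replicate 2, and in Arrest replicate 4 Thbs1 stood at 25.6, Fn1, fibronectin, at 17.2 and Arg1, arginase, at 11.1 FPKM. Ccr2 and Ly6c2, which define these monocytes, stayed below 2 FPKM in every library and overlapped, with means of 0.652 and 0.793 FPKM in Adr and Arrest for Ccr2 and 0.385 and 0.649 FPKM for Ly6c2. Chil3, of the same list and too low to test, was at most 0.198 FPKM in Adr. It stood at 1.23, 10.5, 0.473 and 4.38 FPKM in Arrest, and was the only member of the list without overlap. Of the 7 tested monocyte markers, 0 lay wholly above Adr, against 1.92% of all genes tested. Summed neutrophil markers overlapped, at 5.91 to 40.6 FPKM in Adr and 8.66 to 52.1 FPKM in Arrest (exact permutation p = 0.429), with S100a8 and S100a9 at 14.9 FPKM or less in every library and Ly6g at 0 in all 8. Of 7 tested, 6 had a higher mean in Arrest, against 50.4% of all genes, and 0 had an unadjusted p up to 0.05. Their median log2 difference was 0.675, and 0.23 without Arrest replicate 2. Trem1 and Clec4e, at most 0.809 and 0.596 FPKM and too low to test, were higher in every Arrest library than in any Adr library. Of the 7 tested neutrophil markers, 0 lay wholly above Adr, against 1.92% of all genes tested. No marker of this list separated the groups in the other direction. Mast cell markers had a median log2 difference of -0.37, with 2 of 5 tested lower with unadjusted p up to 0.05, against 3.5% of all genes, and summed to 9.65 to 12.3 FPKM in Adr and 4.95 to 11.9 FPKM in Arrest. Summed markers of dendritic cells, NK cells and T lymphocytes overlapped between the groups, at 16.6 to 24.9 against 13.4 to 23.5 FPKM, 1.48 to 2.37 against 0.848 to 2.29 FPKM and 2.15 to 3.34 against 1.55 to 5.35 FPKM. Hemoglobin and other red blood cell markers were lower in Arrest. They summed to 2548, 2293, 2454 and 5231 FPKM in Adr and to 1664, 2104, 1911 and 1552 FPKM in Arrest, with no overlap (exact permutation p = 0.029, adjusted 0.3). Red blood cell markers thus moved with the groups, opposite in direction to the monocyte markers. Summed platelet markers overlapped, at 52.1 to 82.6 FPKM in Adr and 57.9 to 79.8 FPKM in Arrest (exact permutation p = 0.457). The part of blood left in the tissue in the other differences was not tested. In bulk tissue, fewer cells of a type and less RNA per cell cannot be told apart. Hba-a1 and Hba-a2 are near-identical copies whose reads can be split between them.

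Genes of the extracellular matrix had lower levels in Arrest. In the list of matrix proteins and collagens, 10 of 39 tested members were lower in Arrest with unadjusted p up to 0.05 and 1 was higher (Emilin1), against 3.5% and 3.11% of all genes. The median log2 difference was -0.35, and 31 of the 39 had a lower mean in Arrest. Every Arrest library lay below every Adr library in 5 of them, against 1.99% of all genes. Without Arrest replicate 2 the count of lower genes was also 10, with a median of -0.28, and without Arrest replicate 1 the median was -0.19.

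Lamb1, a laminin chain of basement membranes, stood at 9.70, 11.8, 9.53 and 10.3 FPKM in Adr and at 6.87, 7.32, 8.15 and 5.98 FPKM in Arrest. Neither group's range reached the other (log2 difference -0.49 ± 0.12, limma adjusted p = 0.663), and the Adr values were near the Naïve range of 9.77 to 13.03 FPKM. Nid1, which links laminin to collagen IV, stood at 22.7, 23.8, 25.6 and 30.1 FPKM in Adr and at 15.6, 20.3, 21.9 and 17.8 FPKM in Arrest, again without overlap. Col6a6, a collagen VI chain, was low, at 0.757 to 1.29 FPKM in Adr and 0.123 to 0.537 FPKM in Arrest.

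The 10 largest negative differences with no overlap between the groups belonged to Dbp, Islr, Fibin, Apoo-ps, Chad, Eif3j2, Hba-a2, Lhpp, Pik3ip1 and Hba-a1. Apoo-ps is a pseudogene and Eif3j2 a near-identical copy of another gene, so their reads may be shared. Pik3ip1, an inhibitor of PI3 kinase, stood at 6.80, 6.27, 11.1 and 8.29 FPKM in Adr and at 5.55, 2.7, 4.28 and 4.25 FPKM in Arrest. Lhpp, a phosphatase, had means of 5.78 and 2.85 FPKM in Adr and Arrest.

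Islr (ENSMUSG00000037206), a secreted leucine-rich protein that marks mesenchymal stromal cells, was among them. It stood at 20.3, 28.4, 17.4 and 16.4 FPKM in Adr and at 8.96, 6.06, 14.8 and 7.19 FPKM in Arrest (log2 difference -1.12 ± 0.26, limma adjusted p = 0.663). The groups did not overlap, and all Arrest libraries, with 3 of the 4 Adr libraries, were below the Naïve range of 21.8 to 35.01 FPKM. Ecm2, a matrix protein of the same leucine-rich kind, stood at 6.59, 7.93, 5.37 and 5.58 FPKM in Adr and at 3.57, 1.94, 4.99 and 3.43 FPKM in Arrest. Arrest replicate 3 was the closest to Adr in both genes.

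Comp and Chad, matrix proteins best known from cartilage and tendon, were low in the heart. Comp stood at 1.80, 1.76, 1.55 and 2.60 FPKM in Adr and at 0.337, 0.897, 1.39 and 0.679 FPKM in Arrest, and Chad at 0.701, 1.04, 2.74 and 1.93 FPKM against 0.212, 0.141, 0.268 and 0.443 FPKM. Both had no overlap, with log2 differences of -0.70 ± 0.19 for Comp and -0.98 ± 0.24 for Chad. Fibin, a secreted protein, stood at 6.21, 8.39, 16.3 and 9.60 FPKM in Adr and at 3.09, 3.57, 4.65 and 5.88 FPKM in Arrest. The small proteoglycan Fmod overlapped through Arrest replicate 3, at 4.597 to 8.85 FPKM in Adr and 1.06 to 6.05 FPKM in Arrest.

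Fibroblast markers also had mostly lower means. Col1a1, Col3a1, Dcn and Lum belong to both this list and the matrix list, so the lists are not independent. Of 10, 9 had a lower mean in Arrest, with a median log2 difference of -0.40, and 1 was lower with unadjusted p up to 0.05, against 3.5% of all genes. Without Arrest replicate 1 that median was -0.25. The gene was Dpt, dermatopontin, which binds decorin in the matrix, at 101, 125, 131 and 103 FPKM in Adr and 85.4, 73.4, 97.3 and 69.8 FPKM in Arrest. Its groups did not overlap (log2 difference -0.49 ± 0.14, limma adjusted p = 0.672). The summed fibroblast level was 917 to 1516 FPKM in Adr and 809 to 1020 FPKM in Arrest (exact permutation p = 0.114), while the defining markers Pdgfra and Tcf21 had means of 7.07 and 6.67 FPKM for Pdgfra and 5.72 and 5.38 FPKM for Tcf21. The part of fibroblast number in the matrix result was not tested. Col1a1 and Col3a1, the main fibrillar collagens, and Postn, a marker of activated fibroblasts, overlapped widely, at 20.6 to 34.9 against 12.4 to 32.1 FPKM for Col1a1.

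**Figure D3:**
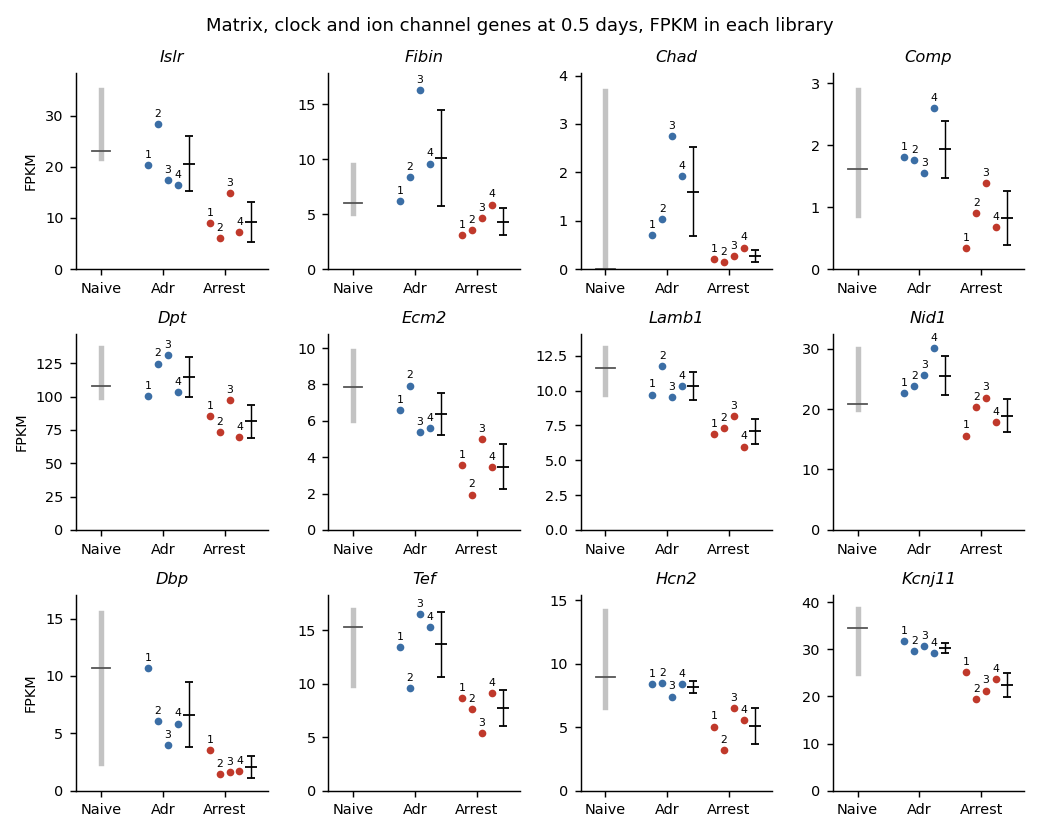
FPKM of 12 genes in each library at 0.5 days, on linear vertical axes that start at 0. Blue points are the 4 Adr and red points the 4 Arrest libraries, numbered by replicate, black bars are the group mean ± SD, and gray bars are the range of the 5 Naïve hearts with their median. In all 12 genes every Arrest library lies below every Adr library. The Adr means of Chad, Dbp, Lamb1, Dpt, Hcn2 and Kcnj11 are among those that lie within the Naïve range.

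Several ion channel genes of the myocyte membrane were lower in Arrest. In the sodium and potassium channel list, 7 of 29 tested genes were lower with unadjusted p up to 0.05 (Kcnj11, Hcn2, Kcnh2, Hcn4, Kcne1, Scn4b and Kcnip2) and 0 were higher, against 3.5% and 3.11% of all genes. The median was -0.15. Other myocyte genes also had lower means. All 10 cardiomyocyte markers did, with a median of -0.12, 0 of them with unadjusted p up to 0.05, and a summed level of 19281 to 23171 FPKM in Adr and 14569 to 21284 FPKM in Arrest. In the sarcomere list 23 of 30 had a lower mean, with a median of -0.10. Myh6, Tnnt2, Tnni3, Actc1, Myl2 and Myl3 belong to both of these lists, which are therefore not independent. The part of myocyte content in the channel values was not tested. Kcnj11, the pore of the ATP-sensitive potassium channel that opens when energy runs low, stood at 31.7, 29.6, 30.7 and 29.1 FPKM in Adr and at 25.2, 19.5, 21.2 and 23.7 FPKM in Arrest. The Adr libraries were tightly grouped and all above Arrest (log2 difference -0.42 ± 0.11, limma adjusted p = 0.663).

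Hcn2, a pacemaker channel, stood at 8.37, 8.44, 7.40 and 8.40 FPKM in Adr and at 5.05, 3.20, 6.52 and 5.57 FPKM in Arrest (log2 difference -0.62 ± 0.17, limma adjusted p = 0.663). Kcnh2, the channel of the rapid delayed rectifier current, stood at 10.8, 10.7, 13.7 and 13.3 FPKM in Adr and at 10.4, 6.85, 9.79 and 8.003 FPKM in Arrest. Neither gene overlapped, though for Kcnh2 the margin was small, and Arrest replicate 2 was the lowest in both. Without that library the median of the channel list was -0.06, with 12 of 29 higher on average and 5 of 29 lower with unadjusted p up to 0.05. Atrial markers, which can enter a ventricular sample at the atrioventricular border, were also lower on average. The log2 mean was below that of Adr in 4 of 4 tested, with a median difference of -0.75. The other 4 of the 8 listed were too low to test. Of the tested markers, 1 lay wholly below Adr, against 1.99% of all genes, and Nppa overlapped widely. Among them Myl7 reached 25.4 FPKM in Adr replicate 3 and 0.968 to 7.19 FPKM in the other 7 libraries. Stard10, of the same list, stood at 12.4, 13.5, 12.3 and 11.8 FPKM in Adr and at 8.23, 9.07, 8.22 and 8.35 FPKM in Arrest. The part of atrial tissue in the channel values was not tested.

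Several output genes of the circadian clock were lower in Arrest. Dbp, a clock-driven activator, stood at 10.7, 6.10, 3.95 and 5.85 FPKM in Adr and at 3.53, 1.48, 1.61 and 1.73 FPKM in Arrest. The groups did not overlap, and the log2 difference of -1.28 ± 0.27 was the largest negative one by the rule for named genes (limma adjusted p = 0.663). Tef, its close relative, stood at 13.4, 9.56, 16.5 and 15.3 FPKM in Adr and at 8.68, 7.63, 5.398 and 9.12 FPKM in Arrest. Nr1d1, a repressor within the clock, had means of 17.5 and 11.8 FPKM in Adr and Arrest and overlapped through Arrest replicate 1. With Nfil3 above, 4 of 20 clock genes had an unadjusted p up to 0.05, 3 lower and 1 higher, against 3.5% and 3.11% of all genes. The median of the list was -0.16, and without Arrest replicate 3 it was -0.07. The 5 Naïve hearts spanned 2.41 to 15.5 FPKM for Dbp, which was wider than either group. The labels give no hour of collection, and its part in these values was not tested.

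Endothelial genes were mixed. Emcn, endomucin, a sialoglycoprotein of capillary and venous endothelium, had the third-lowest p of all genes. It stood at 13.5, 12.2, 11.8 and 12.99 FPKM in Adr and at 23.6, 23.4, 23.3 and 17.6 FPKM in Arrest, with the Naïve hearts at 12.6 to 16.1 FPKM. The groups were well separated, and Arrest replicate 4 was the lowest Arrest library (log2 difference 0.75 ± 0.12, limma adjusted p = 0.515). The endothelial marker list as a whole had 5 of 10 genes higher and a median of 0.00. At an unadjusted p up to 0.05, 2 were higher and 0 lower, against 3.11% and 3.5% of all genes. Emcn and Tek, an angiopoietin receptor, lay wholly above Adr, 2 of 10 against 1.92% of all genes. Tek stood at 18.9, 18.3, 22.7 and 22.5 FPKM in Adr and at 26.8, 27.7, 27.2 and 27.7 FPKM in Arrest. Thbd, thrombomodulin, the endothelial anticoagulant receptor, stood at 31.6, 28.2, 39.3 and 43.9 FPKM in Adr and at 46.5, 73.4, 50.7 and 49.6 FPKM in Arrest. It did not overlap, and Selp, the leukocyte-binding P-selectin, did, at 0.0610 to 0.863 FPKM in Adr and 0.776 to 4.999 FPKM in Arrest. In the list of endothelial activation and coagulation, 17 of 19 had a higher mean and 3 were higher with unadjusted p up to 0.05, against 50.4% and 3.11% of all genes, with a median of 0.25. Without Arrest replicate 2, 14 of 19 were higher, 2 at that p, and the median was 0.09. Apln, the ligand apelin made by endothelium, had means of 3.02 and 1.23 FPKM in Adr and Arrest, with Adr replicate 4 within the Arrest range.

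Endoplasmic reticulum stress genes leaned higher. Of 30 tested, 24 had a higher mean in Arrest, 3 were higher with unadjusted p up to 0.05 (Xbp1, Dnajc3 and Atf6), against 50.4% and 3.11% of all genes, and the median was 0.23. It was also 0.23 without Arrest replicate 2, but 0.11 without Arrest replicate 3 and 0.13 with library quality weights. Xbp1, a transcription factor of the unfolded protein response, stood at 35.9, 36.4, 28.2 and 25.4 FPKM in Adr and at 40.9, 42.9, 51.9 and 45.7 FPKM in Arrest. Dnajc3, a chaperone it induces, stood at 20.4, 21.3, 16.9 and 18.5 FPKM in Adr and at 23.8, 23.0, 25.8 and 25.7 FPKM in Arrest. Neither gene overlapped between the groups, with log2 differences of 0.53 ± 0.14 for Xbp1 and 0.34 ± 0.11 for Dnajc3.

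Energy metabolism showed small differences. Among nuclear-encoded complex I subunits, 0 of 37 had an unadjusted p up to 0.05 and the median was -0.03, and among complexes II to V 0 of 42 were, with a median of 0.00. In glycolysis and glycogen, 4 of 31 were lower (Pygb, Slc2a4, Pfkm and Eno3) and 1 was higher (Pgam1) at that p, against 3.5% and 3.11% of all genes. Pygb, a glycogen phosphorylase, stood at 108, 100, 106 and 115 FPKM in Adr and at 88.4, 83.0, 88.8 and 78.0 FPKM in Arrest. All Arrest libraries were below all Adr libraries, a difference of -0.34 ± 0.09 on the log2 scale (limma adjusted p = 0.663). Slc2a4, the insulin-responsive glucose transporter, had means of 71.6 and 53.8 FPKM, with Adr replicate 3 within the Arrest range. Trim63, a muscle ubiquitin ligase that glucocorticoids induce, stood at 44.3, 41.1, 56.5 and 65.3 FPKM in Adr and at 40.6, 33.5, 26.9 and 30.9 FPKM in Arrest, without overlap. Its list, the glucocorticoid response, was near the share of all genes. Of 25 tested, 1 was lower and 1 higher with unadjusted p up to 0.05, against 3.5% and 3.11%, and the median was -0.09. The interferon, MHC, complement and cell proliferation lists held 0 genes at that level in either direction.

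**Figure D4:**
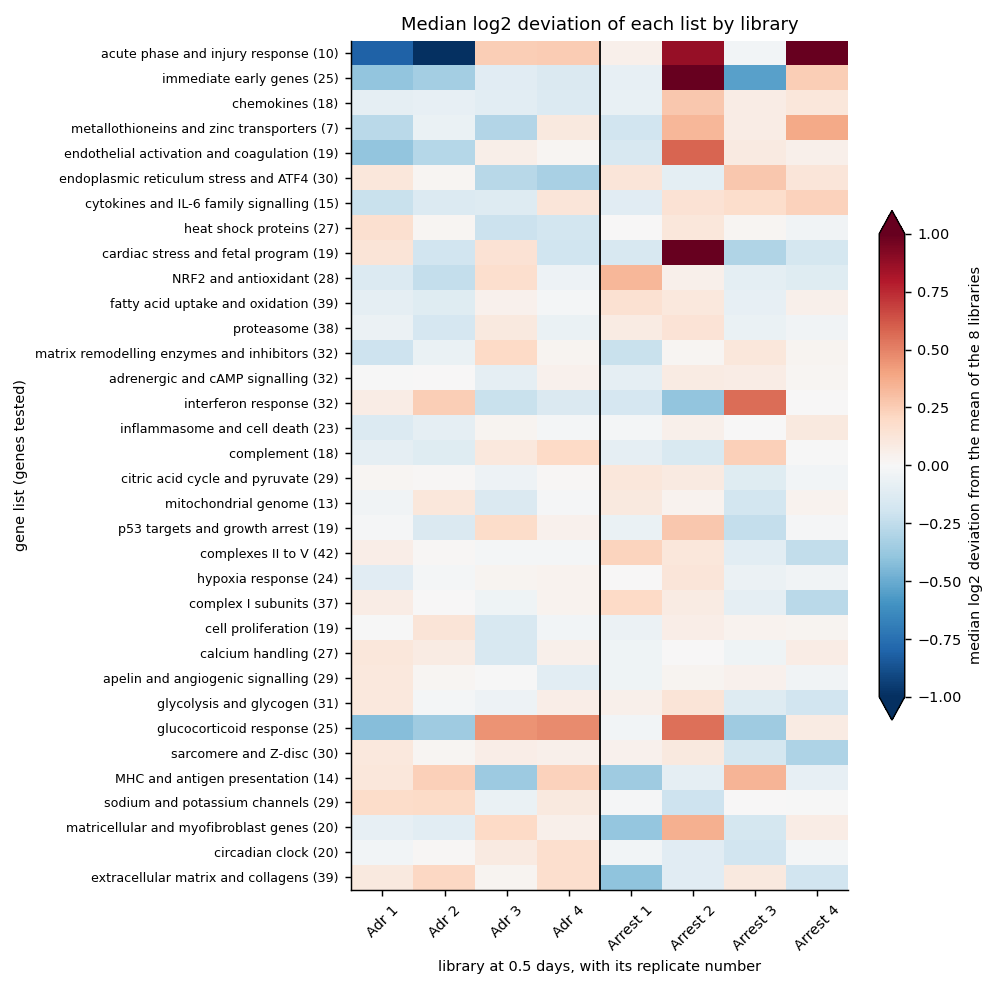
Rows are the 34 gene lists with the number of genes tested, ordered by their median log2 difference, and columns are the 8 libraries. Color is the median over the list of each gene's log2(FPKM + 1) minus its mean over the 8 libraries, with the scale limited at -1 and 1. Adr replicates 1 and 2 are low and Arrest replicates 2 and 4 high for acute phase genes, Arrest replicate 2 alone is high for immediate early and cardiac stress genes, and the matrix list is lowest in Arrest replicate 1.

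Arrest and Adr hearts at 1 day came from other libraries, 4 in each group, and allowed the direction of each gene to be compared with values that played no part at 0.5 days. At 1 day, 0 of 13360 genes (0%) had an adjusted p of at most 0.05, and 1084 (8.11%) an unadjusted p up to that level, 563 higher (4.21%) and 521 lower (3.9%). Of the 884 genes at that level at 0.5 days, 586 (66.3%) had the same direction at 1 day, against 53.9% of all 13360 genes. The share was 67.5% for the higher and 65.2% for the lower genes. Across genes, the log2 differences at both times correlated weakly (Pearson r = 0.23, Spearman rho = 0.15, 13360 genes, which are not independent). At an unadjusted p up to 0.05 at both times there were 117 genes, 54 higher at both, 52 lower at both and 11 opposite.

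The IL-6 family list had a median of 0.10 at 1 day, with 9 of 15 higher on average and 3 higher with unadjusted p up to 0.05, against 4.21% of all genes. For Nfil3, named by its size at 0.5 days, the log2 difference at 1 day was 1.22. It was 0.59 for Osmr, named from its list by p at 0.5 days, and 1.78 for Serpina3n and 2.01 for Lcn2, which were also picked by name. The lists were chosen with earlier results of these data known, so these list members are not an independent check. Stat3, Socs3, Tnfaip6, Gfpt2, Ly6a and Tnfrsf1a, the receptor of TNF, were also among those picked for a small p in the same direction at both times, so their 1 day direction was fixed by that choice. Their differences were 0.56 for Stat3, 1.33 for Socs3, 1.13 for Tnfaip6, 0.94 for Gfpt2 and 0.72 for Ly6a, and Tnfrsf1a was at 0.52 at 0.5 days and 0.53 at 1 day. By contrast, the 1 day values were 0.10 for Il6st, -0.09 for Emcn, -0.28 for SNORA2C and -0.38 for Ccl12. List medians at 1 day were -0.38 for chemokines (6 of 18 higher in Arrest), -0.535 for inflammatory monocyte markers (1 of 7) and -0.04 for endothelial activation and coagulation (8 of 19). They were 0.77 for acute phase genes (8 of 10), 0.74 for immediate early genes (22 of 25) and 0.77 for neutrophil markers (6 of 7). Over all genes, 6759 of 13360 had a higher mean in Arrest at 1 day.

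The matrix list had a median of -0.32 at 1 day, with 10 of 39 lower and 1 higher with unadjusted p up to 0.05, against 3.9% and 4.21% of all genes. Lamb1, Nid1 and Col6a6, named from this list by p at 0.5 days, differed by -0.37, -0.27 and -0.25 at 1 day. Chad, named by its size at 0.5 days, differed by -1.85. The list itself was chosen with earlier results of these data known. Others were picked for a small p at both times, so their direction was fixed by that choice, at -0.88 for Islr, -1.73 for Comp, -1.06 for Ecm2, -0.60 for Dpt, -0.86 for Pdgfrl, a receptor-like secreted protein, and -0.82 for Itih5, a hyaluronan-associated protein. Channel genes differed less at 1 day, with a list median of -0.05, and Kcnj11 at 0.04 and Hcn2 at -0.06. Of the 29, 14 had a higher mean in Arrest, and 2 were lower with unadjusted p up to 0.05, against 3.9% of all genes. Cardiomyocyte markers, lower in Arrest at 0.5 days, had a median of 0.28 at 1 day, with 9 of 10 higher on average. Complex I subunits had a median of 0.28 at 1 day, with 9 of 37 higher with unadjusted p up to 0.05, against 4.21% of all genes. Whether a gene's difference changed between 0.5 and 1 day was tested directly in 14755 genes. None (0%) passed an adjusted p of at most 0.05, and 782 (5.3%) had an unadjusted p of that size, so no gene is shown to differ between the times.

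**Figure D5:**
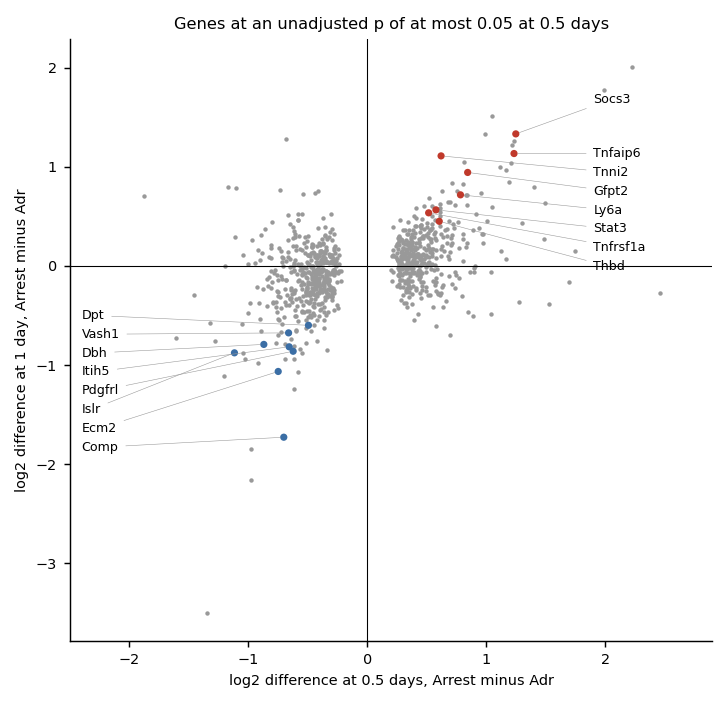
Each point is one of the 884 genes with unadjusted p up to 0.05 at 0.5 days, with its log2 difference, Arrest minus Adr, at 0.5 days on the horizontal axis and at 1 day, in other libraries, on the vertical axis. Colored points are the 8 higher (red) and 8 lower (blue) genes with the smallest p at both times. Points in the upper right and lower left are the 586 genes alike in direction, and Comp has the lowest 1 day value among the colored genes.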

How the data were processed

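RNA was isolated from left ventricular tissue, and Novogene made and sequenced the libraries. Alignment with HISAT2 was done for the authors, who deposited 1 table of FPKM values for 56748 genes, 1 column per library. The genome build, annotation, counting tool and strand are not given in the sources used here. Gene starts matched the GRCm38 annotation in 1485 of 52073 shared genes, so no gene coordinates from the deposited values are given, and overlapping genes are uncertain. The coordinates of the Socs3 and Tnfaip6 promoter windows are those of the RefSeq windows on GRCm38.p6. FPKM times gene length was a whole multiple of 1 fragment in 100% of values (tolerance 0.01), which gave the fragments counted. Unused per-sample columns numbered 0, and none of 28 pairs of the 8 libraries were copies (lowest chi-square per gene 11.3).

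Genes reaching 0.5 FPKM in 4 or more of the 8 libraries were fitted on log2(FPKM + 1) with limma 3.58.1 in R 4.3.3 (mean-variance trend, 1 mean per group, no covariate), with Benjamini-Hochberg adjustment and a threshold of 0.05, in place of the authors' DESeq2, since the deposited values are FPKM. A fold change on this scale understates the change of low genes. The 1 day groups were fitted alike on the same genes, and both times in 1 model with an interaction. Summed markers were compared with two-sided exact permutation tests. The fit was tested on simulated data.

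The comparison, 34 gene lists (825 genes tested) and 21 marker lists were chosen with earlier results of these data known. Genes were named by rule: the 10 largest differences each way among genes with unadjusted p of at most 0.05, no overlap, a mean of at least 1 FPKM in a group and no clone name; up to 4 members of each list by p; and 18 genes picked by name, of which Mt2 and Il6 were too low to test. Another 8 genes each way by the larger p at both times and the 5 smallest p were added after the values were seen. Alternatives were the pseudocount, filters, scaling, a gene length correction, fragments with voom, library weights, sex, a replicate block, all 37 libraries and each library left out.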

Additional observations from a re-analysis of the deposited data

Results flagged for a closer look

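In groups of 4 libraries, a library was singled out when its gap to the nearest other, as a share of the group's range, was above the limit of Dixon's test at 0.05, which happens by chance in about 1 in 20 groups. Of 396 groups tested, 31 were singled out (7.83%). Values are FPKM, and the FPKM of the other 3 libraries of the group are given where the gap is wide.

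Arrest replicate 2 was the high library for 9 of them, 8 genes and 1 marker sum. It stood at 58.9 for Nfil3 (others 13.97 to 17.9), 7.04 for Ptgs2 (1.43 to 1.61), 62.6 for Junb (21.2 to 22.8), 25.7 for Socs3 (10.03 to 11.7), 104 for Rcan1, an inhibitor of calcineurin (39.98 to 42.5), 102 for Gadd45g, a stress-induced growth arrest gene (17.2 to 21.8), 2.59 for Cd80, a costimulatory ligand (0.626 to 0.805), and 9.07 for Stard10. Its summed endothelial markers, at 680, were also above the others (389 to 432).

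Other Arrest libraries were singled out 6 times. Replicate 1 was high for Dbp at 3.53 and Slc2a4 at 66.5, and low for Mmp3 at 16.6 (others 33.9 to 36.0) and Mcm4, a replication factor, at 2.17. Replicate 3 was high for H2-Aa, an MHC class II chain, at 24.5 (9.42 to 10.5), and replicate 4 was low for Emcn at 17.6 (23.3 to 23.6).

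Adr replicate 3 was low for H2-Aa at 9.25 (26.3 to 28.7), its partner Cd74 at 61.5 (126 to 140), Hcn2 at 7.40 and Slc2a4 at 56.4, and high for Atp5g2 at 143, Myd88 at 7.34 and Tnni2 at 0.759. Adr replicate 4 was high for SNORA2C at 1.68 with the others at 0, for Ctss, a macrophage protease, at 35.2 (22.5 to 22.8) and for summed red blood cell markers at 5231 (2293 to 2548), and low for Cox6a1 at 159 and Prdx1 at 104. Adr replicate 2 was high for Col6a6 at 1.29 and summed platelet markers at 82.6 (52.1 to 56.9), and low for Mpc1 at 35.9 and Psme4 at 26.5.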

How the results depend on the processing

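No gene had an adjusted p of at most 0.05 in the reported fit or in 11 alternatives; leaving out each library gave 0 to 1, the 1 being SNORA2C without Adr replicate 4 (adjusted p = 0.0104). The 884 genes with unadjusted p up to 0.05 became 1350 with no filter, where 26974 genes were tested, and 507 when all 37 libraries shared 1 estimate of the spread; they ranged from 674 to 1082 with each library left out. Of 172 named genes, the direction turned in 2, mt-Atp6 at -0.11 without Arrest replicate 4, and Nppa at 0.12 without Adr replicate 3, 0.06 without Arrest replicate 1 and 0.06 without Arrest replicate 4; with each library left out, mt-Atp6 reached 0.59 at most and Nppa -0.64 at least, and the cause was not tested. All other 3257 values of named genes kept direction and side of the threshold, apart from SNORA2C. The 0 genes whose difference changed between 0.5 and 1 day became 0 to 1 with each of 16 libraries left out.

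Same-numbered libraries of the groups deviated together with correlations of -0.234 to 0.121, so the numbers do not pair them. With a replicate block, 0 genes passed the adjusted threshold and 722 the unadjusted one, and the interaction had 0. With 13.2 to 21.7 M fragments a library, depth limits short and low genes, and with 4 libraries a group, the spread between them limits the rest.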
